A study of Mus musculus with 2 samples.

Results

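Imprinted genes are transcribed mainly from 1 of the parental copies, and many of them lie in clusters under the control of a shared methylated region. The 10 genes *Meg3*, *Rian*, *Mirg*, *Dlk1*, *Peg3*, *Ndn*, *Snrpn*, *H19*, *Igf2* and *Cdkn1c* were chosen by name, with earlier results of these data known, and their deposited counts were summed in each library and in each cell class set by a marker gene. Of the 10, 9 have a row among the 28692 genes of the counts, and *Rian* was not analysed here. The cells came from the ventral parafacial region of the brainstem, which holds the chemosensitive neurons of the retrotrapezoid nucleus. They were taken from wild-type C57BL/6J mice at 10 days of age, with 8 mice (4 male and 4 female) pooled for each of 2 libraries. The mice of the first library (batch 1) were untreated, and those of the second (batch 2) received 0.2 mg of 4OH-tamoxifen daily for 3 days. Batch and treatment cannot be told apart, and with 1 library each no test between them was possible. The strain is inbred, so the parental copy of a transcript was not measured.

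Within the cluster on distal mouse chromosome 12, *Dlk1* is expressed from the paternal copy and encodes a membrane protein of the Notch ligand family, while the maternal copy gives the long noncoding RNAs *Meg3*, *Rian* and *Mirg*, which carry many small RNAs. On chromosome 7, *Peg3* encodes a zinc finger protein, *Ndn* encodes the MAGE-family protein necdin, and *Snrpn* encodes a splicing protein found at high levels in brain, all from the paternal copy. Further along the same chromosome, the growth factor gene *Igf2* is paternally expressed, and the noncoding RNA *H19* and the cyclin-dependent kinase inhibitor gene *Cdkn1c* are maternally expressed. In the brain, *Igf2* is an exception known to be expressed from both copies in choroid plexus and leptomeninges.

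In the GRCm38 annotation, *Dlk1* lies at chr12:109452823-109463336, *Meg3* at chr12:109541001-109571726 and *Mirg* at chr12:109729764-109749460, all on the plus strand. On chromosome 7, *Peg3* lies at chr7:6703892-6730431 on the minus strand, *Snrpn* at chr7:59982495-60140219 on the minus strand and *Ndn* at chr7:62346569-62350262 on the plus strand. *H19* lies at chr7:142575529-142578143, *Igf2* at chr7:142650766-142666816 and *Cdkn1c* at chr7:143458339-143461050, all on the minus strand. RefSeq places 26 mature microRNAs from 14 hairpins inside the *Mirg* transcription unit, with 25 different seeds (bases 2 to 8), and *Mirg* counts are the nearest readout of that unit here, since small RNAs were not measured. The only seed that occurs more than once is that of miR-453 and miR-496a-5p, and 4 of the mature sequences open with AGGUU. These 4 are shown, 5′ to 3′, with the seed in capitals, because they share a start that reaches into the seed. The whole sequences were not compared.

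mmu-miR-453: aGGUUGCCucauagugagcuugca
mmu-miR-496a-5p: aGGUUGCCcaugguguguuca
mmu-miR-409-5p: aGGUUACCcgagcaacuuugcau
mmu-miR-410-5p: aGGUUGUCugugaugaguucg

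Promoter windows of 300 bases from RefSeq (GRCm38.p6) were found for 8 of the genes, 15 windows in all, and *H19* and *Cdkn1c* had none. *Meg3* and *Peg3* each had a window with the palindrome TGACGTCA, which 588 of 32851 windows of that length (1.79%) contain. These letters occurred in neither the second *Meg3* window nor the windows of *Mirg* and *Dlk1*. The *Mirg* window, chr12:109734731-109735030, and the *Ndn* window lie inside the annotated genes given above, not at their starts. The *Mirg* window therefore says nothing about the start of that annotated unit. The palindrome CGCATGCG occurred in the *Ndn* window and in all 4 *Snrpn* windows, against 615 of 32851 windows (1.87%). The *Snrpn* windows belong to alternative starts of the same gene and are not independent. Both palindromes read the same on both strands, do not overlap each other, and were chosen after the windows had been looked at, so the matches are descriptions of letters in a window. In the sequences of the *Meg3* (plus strand), *Peg3* (minus strand), *Ndn* (plus strand) and downstream *Snrpn* (minus strand) windows, shown to let these be seen, the palindrome is in capitals. They hold 13, 13, 11 and 7 CpG dinucleotides, against a median of 7 over all windows. The 3 other *Snrpn* windows, which carry the same palindrome, hold 2, 3 and 4.

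Meg3 promoter, chr12:109540746-109541045: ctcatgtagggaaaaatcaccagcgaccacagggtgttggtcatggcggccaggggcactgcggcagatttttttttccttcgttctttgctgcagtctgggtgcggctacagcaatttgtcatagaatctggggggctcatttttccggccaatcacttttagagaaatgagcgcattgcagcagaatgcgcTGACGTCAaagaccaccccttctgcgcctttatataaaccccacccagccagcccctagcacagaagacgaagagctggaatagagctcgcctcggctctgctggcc
Peg3 promoter, chr7:6730370-6730669: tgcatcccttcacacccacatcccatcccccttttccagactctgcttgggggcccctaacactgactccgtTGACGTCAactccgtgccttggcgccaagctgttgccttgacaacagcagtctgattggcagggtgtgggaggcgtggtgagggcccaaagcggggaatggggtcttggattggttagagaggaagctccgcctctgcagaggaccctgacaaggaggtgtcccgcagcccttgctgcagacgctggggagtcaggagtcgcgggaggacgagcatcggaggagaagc
Ndn promoter, chr7:62348027-62348326: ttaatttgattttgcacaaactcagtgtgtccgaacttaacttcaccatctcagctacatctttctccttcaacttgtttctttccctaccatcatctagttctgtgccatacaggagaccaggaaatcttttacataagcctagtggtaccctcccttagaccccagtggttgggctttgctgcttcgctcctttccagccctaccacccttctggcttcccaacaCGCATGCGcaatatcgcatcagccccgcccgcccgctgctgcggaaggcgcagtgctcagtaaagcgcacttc
Snrpn promoter, chr7:60005150-60005449: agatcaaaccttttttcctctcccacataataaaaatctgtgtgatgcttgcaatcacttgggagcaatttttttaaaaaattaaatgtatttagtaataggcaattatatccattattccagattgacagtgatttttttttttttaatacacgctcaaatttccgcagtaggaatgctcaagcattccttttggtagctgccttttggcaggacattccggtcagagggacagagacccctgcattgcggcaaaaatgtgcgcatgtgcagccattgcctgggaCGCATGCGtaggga

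The untreated library held 3767 barcodes and 18496942 unique molecular identifiers (UMIs, the counted transcripts), and the 4OH-tamoxifen library 10241 barcodes and 34704167 UMIs. After quality filters and doublet removal 3339 and 8558 cells remained, with a median of 3628 and 2411 UMIs, and the libraries shared 40 barcodes. Doublet calls were few in the untreated library, 6 barcodes (0.159%) against 544 (5.31%). In the untreated library 2367 cells (70.9%) and in the 4OH-tamoxifen library 5282 cells (61.7%) fell into exactly 1 of 10 marker classes. Throughout, values are given for the untreated library first and the 4OH-tamoxifen library second. The 4 neuronal classes, with 151 and 542 cells, were *Chat* cells (20 and 92), *Nmb* cells (26 and 55), *Slc32a1* cells (83 and 310) and *Slc17a6* cells (22 and 85). The 6 non-neuronal classes, with 2216 and 4740 cells, were *Aqp4* astrocyte-like (837 and 1822), *Pdgfra* precursor-like (312 and 646), *Mog* oligodendrocyte-like (451 and 1405), *C1qa* microglia-like (337 and 506), *Cldn5* endothelial-like (254 and 346) and *Dcn* fibroblast-like cells (25 and 15). In 9 of these classes all 4 supporting markers stood out in both libraries, whereas in *Slc17a6* cells 0 of 4 did, so these are named by their gate alone. Levels are UMIs of a gene per 1000000 UMIs of the class (CPM), and the 95% intervals of levels, shares and ratios cover counting error only.

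In both libraries 6 of the imprinted genes were higher in neurons and 2 were lower. Of the 9 genes, 8 reached the minimum of 20 UMIs and 10 CPM for a ratio of gated neurons to gated non-neuronal cells, and *H19* did not. *Meg3*, *Mirg*, *Dlk1*, *Peg3*, *Ndn* and *Snrpn* were at least 2-fold higher in neurons in both libraries, as were 25.5% of the 10266 genes tested. *Igf2* and *Cdkn1c* were at least 2-fold lower, as were 15.7% of the same genes. The median log2 ratio of the 8 genes was 2.98 and 3.23, against 0.23 and 0.33 over all genes. These genes were picked with such levels known, so the counts and medians describe the chosen set. The plot of levels by class shows the same division.

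**Figure D1:**
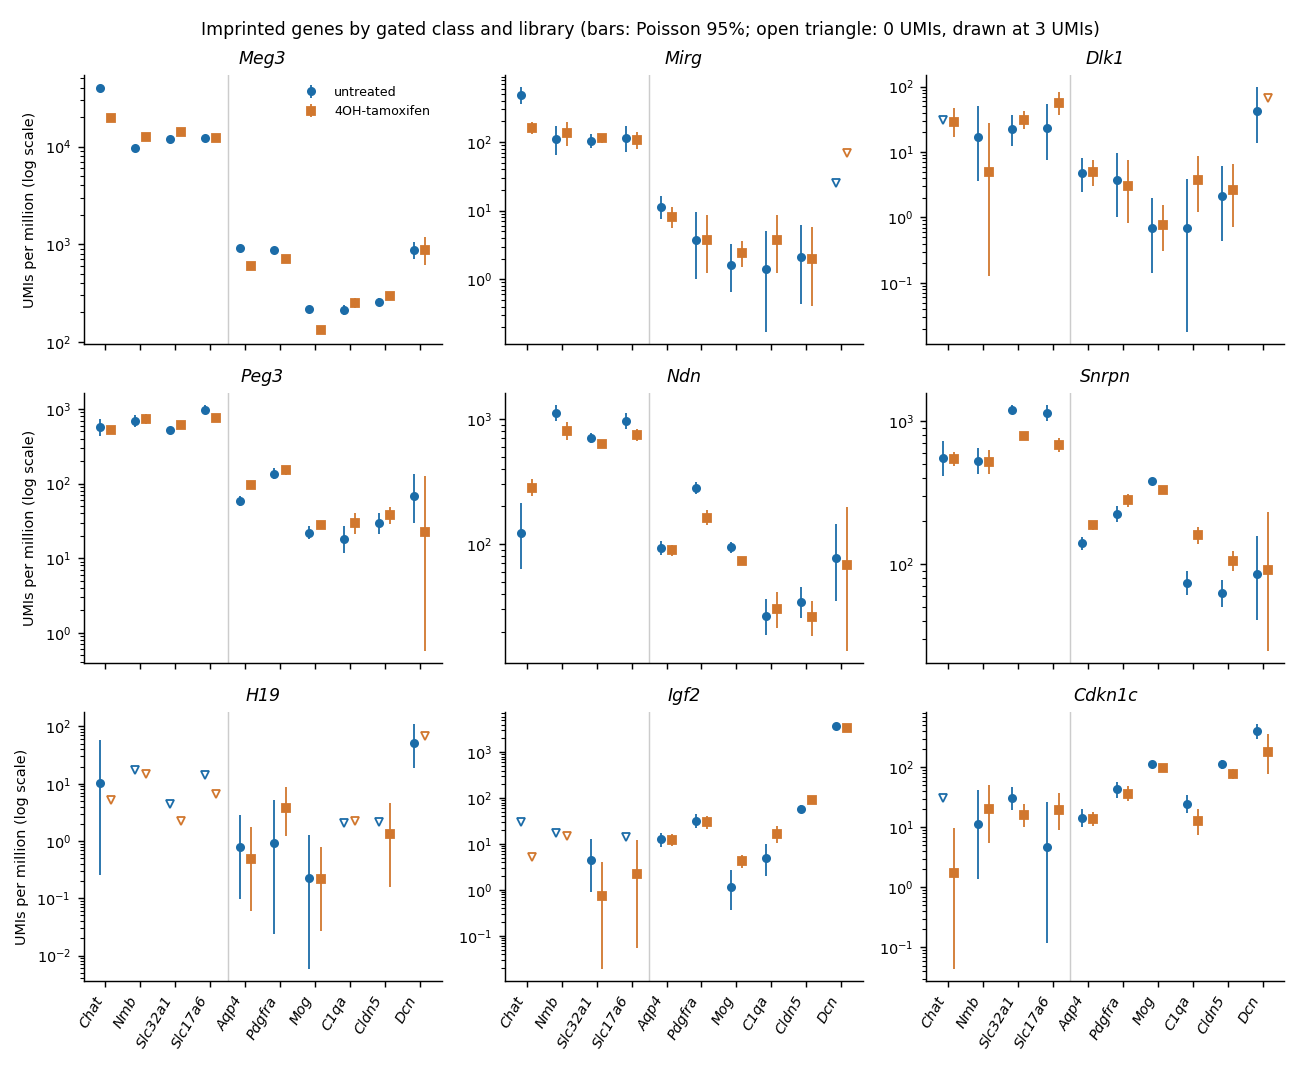
Level of each of the 9 measured genes (CPM, log axis) in the 10 marker classes, with 1 point per library and bars for the 95% Poisson interval. *Meg3* lies between 9769.5 and 39733 CPM in the neuronal classes and between 133 and 916 CPM in the non-neuronal ones, whereas *Igf2* peaks in *Dcn* cells at 3807 and 3325 CPM.

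*Meg3* was far higher in neurons than in other cells. In gated neurons it reached 14053.5 and 14974 CPM, or 1.41% and 1.497% of all neuronal UMIs, against 455 and 309 CPM in gated non-neuronal cells. The ratio was 30.9 (95% interval 29.9–31.9) and 48.5 (47.1–49.9). The 151 and 542 neurons, of 3339 and 8558 kept cells, held 47.3% and 49.3% of all *Meg3* UMIs. A median neuron carried 95 and 60 *Meg3* UMIs, and 139 of 151 and 528 of 542 neurons carried at least 1. The ratio depended on how the non-neuronal classes were gated. It was 14.8 in both libraries with gates of 1 UMI of the marker, and 81.5 and 78.6 when non-neuronal cells with a neuronal UMI were left out.

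Every neuronal class was high, and *Chat* cells led. *Meg3* stood at 39733 and 19728 CPM in *Chat* cells, 9769.5 and 12590.3 CPM in *Nmb* cells, 11979 and 14162 CPM in *Slc32a1* cells, and 12304 and 12366 CPM in *Slc17a6* cells. *Chat* cells, gated by the acetylcholine synthesis enzyme, exceeded the other neurons 3.40-fold (3.28–3.53) and 1.45-fold (1.42–1.48). In the untreated library the *Slc32a1* and *Slc17a6* classes had overlapping intervals, 11718–12244 and 11836–12787 CPM, and in the 4OH-tamoxifen library the *Nmb* and *Slc17a6* classes did, 12104–13092 and 12045–12693 CPM. Below *Chat*, then, the order of the neuronal classes was not the same in the libraries.

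The lead of untreated *Chat* cells was shared by some transcripts and not by others. Beside *Meg3*, *Mirg* stood at 482 and 160 CPM in *Chat* cells, the noncoding RNA *Snhg11* at 9726 and 3680.1 CPM and the nuclear RNA *Malat1* at 66717 and 34590.3 CPM, all higher in the untreated library. *Peg3* at 574 and 528 CPM and *Snrpn* at 553 and 548 CPM were nearly equal there, and *Ndn*, at 123 and 283 CPM, was lower in the untreated library. Across single *Chat* cells *Meg3* and *Malat1* had a Spearman correlation of 0.44 (20 cells) and 0.78 (92 cells), and in the other neuronal classes it ranged from 0.24 to 0.73. These are descriptions over cells that share a library and differ in depth. With 20 cells in the untreated *Chat* class, its level rests on few cells.

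Among the non-neuronal classes *Meg3* was at 916 and 594 CPM in *Aqp4* cells, 873 and 704 CPM in *Pdgfra* cells, and 862 and 865 CPM in *Dcn* cells. It was at 218 and 133 CPM in *Mog* cells, 212 and 249 CPM in *C1qa* cells, and 256 and 293 CPM in *Cldn5* cells. Much of this sum sat in a few cells. In the untreated library 21 non-neuronal cells with at least 20 *Meg3* UMIs held 62.9% of the non-neuronal *Meg3*, and in the 4OH-tamoxifen library 35 cells held 46.3%. A neuronal UMI (*Snap25*, *Syp*, *Tubb3* or *Elavl2*) was present in 19 of the 21 and 34 of the 35, against 40.5% and 49.97% of the remaining non-neuronal cells. The 6 neuronal markers summed to between 291 and 799 CPM over the untreated and between 456 and 1413 CPM over the 4OH-tamoxifen non-neuronal classes, *Mog* lowest and *Aqp4* highest in each. Without the *Meg3*-rich cells the non-neuronal level was 171 and 167 CPM. The plot of UMIs per cell shows how rare they are. The part of joined or mixed cells in these counts was not tested.

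**Figure D2:**
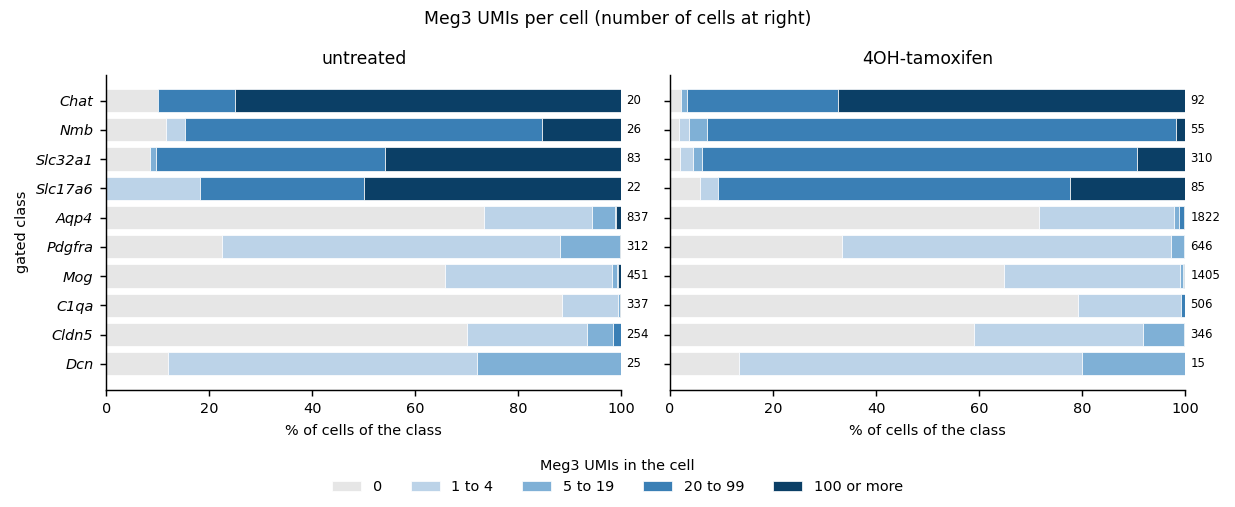
Share of cells (percent) in each range of *Meg3* UMIs per cell, for every class and both libraries. Of neurons, 133 of 151 and 508 of 542 have at least 20 *Meg3* UMIs, and of non-neuronal cells 21 of 2216 and 35 of 4740 do.

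The class sums conceal a difference between glial types in how many cells carried *Meg3*. To compare shares, 2000 UMIs were drawn from each cell that had as many, and such cells are called thinned. Of thinned *Pdgfra* cells 68.8% and 59.8% had *Meg3*, and of thinned *Dcn* cells 80.0% and 61.5%. *Aqp4* cells, whose summed level was as high in the untreated but not in the 4OH-tamoxifen library, had 23.6% and 28.0%. *C1qa* cells, taken by assumption as the background for free RNA, had 7.01% and 17.9%. *Mog* cells had 11.9% and 14.1% and *Cldn5* cells 14.7% and 27.4%. The 6 neuronal markers summed to 450 and 994 CPM in *C1qa* cells, above *Mog* (291 and 456 CPM) and *Cldn5* cells (332 and 583 CPM). The *C1qa* class was thus not the lowest in neuronal RNA. Without thinning the shares were 77.6% and 66.6% of *Pdgfra* cells and 11.6% and 20.8% of *C1qa* cells. The neuronal mRNA *Snap25* was found in 17.3% and 20.7% of thinned *Pdgfra* cells, 0 of 25 and 0 of 13 *Dcn* cells (upper 95% limits 13.7% and 24.7%) and 8.84% and 11.1% of *C1qa* cells. *Snap25* was far scarcer than *Meg3* in neurons, at 760 and 664 CPM, so a lower share of cells with it does not set *Meg3* apart from carried-over neuronal RNA. For each *Snap25* UMI there were 9.73 and 5.24 *Meg3* UMIs in *Pdgfra* cells, fewer than in any neuronal class (14.3 to 58.7 and 16.5 to 31.0). For each UMI of *Snhg11*, a neuronal noncoding RNA, there were 8.34 and 9.57, more than in any neuronal class (3.02 to 5.07 and 3.84 to 5.76). Neither ratio was particular to *Pdgfra* cells. *Cldn5* cells had 9.125 and 6.54 *Meg3* UMIs per *Snap25* UMI and 7.93 and 10.25 per *Snhg11* UMI. *Mog* and *C1qa* cells were also below every neuronal class per *Snap25* UMI. The part of neuronal RNA in these shares was not tested. *Meg3* in *Pdgfra* and *Dcn* cells was thus spread over most cells at 1 to a few UMIs, with a median of 2 and 1 in *Pdgfra* cells and 3 and 2 in *Dcn* cells before thinning.

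**Figure D3:**
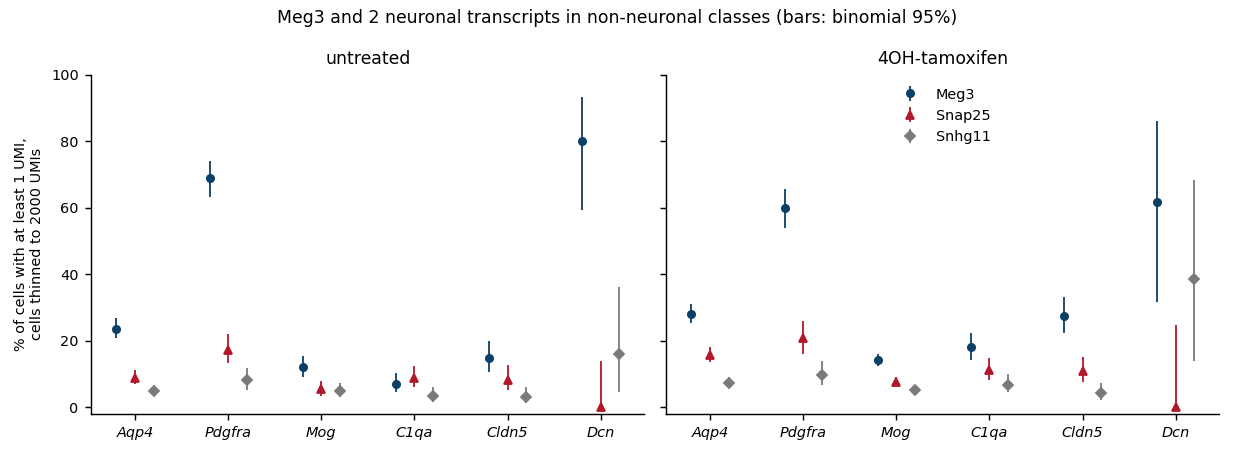
Percent of thinned non-neuronal cells (2000 UMIs each) with at least 1 UMI of *Meg3*, *Snap25* or *Snhg11*, by class and library, with 95% Clopper-Pearson intervals. *Meg3* is found in 68.8% and 59.8% of *Pdgfra* cells and in 7.01% and 17.9% of *C1qa* cells, while *Snap25* is at or below 20.7% in every class.

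*Mirg*, the downstream noncoding RNA of the same cluster, was also higher in neurons. It stood at 139 and 125 CPM in neurons and 4.11 and 3.89 CPM in non-neuronal cells, a ratio of 33.7 (24.1–48.1) and 32.0 (24.5–42.2). This ratio fell to 16.2 and 11.997 with gates of 1 UMI and reached 265 and 81.1 without non-neuronal cells that carried a neuronal UMI. Within neurons it ranged from 104 to 482 CPM in the untreated and from 107 to 160 CPM in the 4OH-tamoxifen library. *Chat* cells had the largest value in both, but in the 4OH-tamoxifen library all 4 intervals overlap, that of *Chat* being 129–196 CPM. It did not exceed 11.4 CPM in any non-neuronal class, and *Dcn* cells had 0 UMIs in 25 and 15 cells. Leaving out *Dcn* cells, the non-neuronal classes had the order of *Meg3* in the untreated library but not in the 4OH-tamoxifen library, from few *Mirg* UMIs. *Pdgfra* cells had 2.13-fold and 2.55-fold the *Meg3* level of the other non-neuronal cells. Their *Mirg* level was 0.901 (0.234–2.49) and 0.960 (0.301–2.36) times that of the others, from 4 and 5 UMIs. The untreated interval includes the *Meg3* ratio of that library. Per 100 *Meg3* UMIs there were 0.871 to 1.21 *Mirg* UMIs over the untreated neuronal classes, with *Slc32a1* lowest (0.678–1.10) and *Chat* highest (0.889–1.62), and these intervals overlap. In the 4OH-tamoxifen library there were 0.8001 to 1.07, with *Slc32a1* lowest (0.678–0.939), *Nmb* highest (0.704–1.56) and *Chat* at 0.813, so the classes were not ordered alike. Small RNAs processed from *Mirg* do not count toward these UMIs.

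*Dlk1*, expressed from the opposite parental copy, was scarce. Neurons had 23 and 86 UMIs, or 19.9 and 33.4 CPM, against 2.56 and 2.29 CPM in non-neuronal cells, a ratio of 7.79 (4.29–14.0) and 14.6 (9.90–21.8). With classes from the supporting marker lists it was 2.56 and 4.22. It was detected in 12 of 151 and 32 of 542 neurons, so most neurons with high *Meg3* had 0 *Dlk1* UMIs. Of the neuronal UMIs, 9 and 17 were in 2 and 1 cells with the serotonin synthesis gene *Tph2*, singled out after the values were seen. The other neurons were at 12.3 and 26.9 CPM. *Dcn* cells had 5 UMIs in 4 of 25 untreated cells (42.7 CPM) and 0 in 15 4OH-tamoxifen cells. The untreated level was 11.1-fold (3.45–27.9) that of the other gated cells, and the 0 of the 4OH-tamoxifen library has an interval up to 13.5-fold. Of the other listed genes of this cluster, the retrotransposon-derived *Rtl1* had 3 and 5 UMIs in neurons and 0 and 7 elsewhere among gated cells, and the deiodinase gene *Dio3* had at most 2 UMIs in any group, both too few for a ratio.

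*Peg3* was high in all 4 neuronal classes. It stood at 633 and 623 CPM in neurons and 42.6 and 54.0 CPM in non-neuronal cells, a ratio of 14.9 (13.2–16.7) and 11.5 (10.6–12.5), or 8.83 and 7.60 with classes from the supporting lists. The neuronal classes ranged from 517 CPM (*Slc32a1*) to 980 CPM (*Slc17a6*) in the untreated library and from 528 CPM (*Chat*) to 752 CPM (*Slc17a6*) in the other. In the 4OH-tamoxifen library the interval of the *Slc17a6* cells (674–835 CPM) overlapped that of the *Nmb* cells, at 739 CPM (625–868). The *Slc17a6* cells exceeded the other neurons 1.77-fold (1.496–2.08) and 1.26-fold (1.12–1.42). Outside neurons, *Pdgfra* cells were highest, at 136 and 151 CPM, and exceeded the other non-neuronal cells 4.17-fold (3.40–5.09) and 3.28-fold (2.79–3.83). *Mog* cells (22.0 and 27.5 CPM) and *C1qa* cells (18.2 and 29.4 CPM) were among the lowest, and *Dcn* cells rest on 8 and 1 UMIs. The neighbouring genes *Usp29* and *Zim1*, which share the imprinted domain, had ratios of 38.1 and 21.4 and of 32.5 and 16.3, and *Zim3* had too few UMIs.

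*Ndn* and *Snrpn*, both from the Prader-Willi domain, differed from each other within neurons. *Ndn* stood at 767 and 585 CPM in neurons against 95.5 and 76.4 CPM in non-neuronal cells, a ratio of 8.04 (7.34–8.80) and 7.66 (7.11–8.25), or 5.05 and 4.10 with classes from the supporting lists. It was lowest in *Chat* cells, at 123 and 283 CPM, from 12 and 164 UMIs, and highest in *Nmb* cells, at 1118 and 804 CPM, though their intervals overlap those of the *Slc17a6* cells (966 and 745 CPM) in both libraries. *Chat* cells had 0.149 (0.0766–0.261) and 0.420 (0.355–0.495) times the level of the other neurons, the opposite of *Meg3*. In thinned cells *Ndn* was found in 11.1% and 29.5% of *Chat* cells and in 72.0% and 74.5% of *Nmb* cells.

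*Snrpn* stood at 1037 and 698 CPM in neurons and 225 and 260 CPM in non-neuronal cells, a ratio of 4.61 (4.29–4.94) and 2.69 (2.54–2.84), the smallest of the 6 neuronal genes. In the untreated library its interval overlaps that of *Dlk1* (4.29–14.0). With classes from the supporting lists the untreated *Dlk1* ratio was the lower, 2.56 against 3.53. *Slc32a1* cells, gated by the vesicular GABA transporter, stood at 1205 (1124–1291) and 794 (747–843) CPM, and *Slc17a6* cells, at 1141 (1001–1294) and 684 (610–764) CPM, overlapped them in both libraries. *Nmb* cells stood at 530 and 519 CPM. The *Chat* cells, at 553 and 548 CPM, had intervals (416–722 and 490–612 CPM) that overlap those of the *Nmb* cells (427–650 and 424–629 CPM), so these classes are not ordered for *Snrpn*. Beyond neurons, *Mog* cells had 381 and 330 CPM, 3.12-fold (2.87–3.40) and 1.82-fold (1.71–1.93) the level of the other non-neuronal cells, and 84.9% and 80.1% of them carried at least 1 UMI. In thinned cells the share was 46.1% in *Mog* cells of both libraries, against 12.5% and 29.1% of *C1qa* cells. *Snrpn* shares its start and strand with *Snurf*, for which every gated class had 0 UMIs, so how reads were divided between the annotations is uncertain.

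*Ndn* had a different glial pattern. *Pdgfra* cells had 280.5 and 163 CPM, 3.72-fold (3.24–4.26) and 2.35-fold (2.02–2.72) the level of the other non-neuronal cells, whereas *Mog* cells (94.2 and 73.4 CPM) were near the *Aqp4* cells (93.6 and 89.1 CPM). Of the other genes of this domain, *Magel2*, another MAGE-family gene, had a ratio of 54.6 and 21.0, *Ube3a*, a ubiquitin ligase gene, 4.54 and 4.29, and *Mkrn3*, a ring finger gene, 3.55 and 2.52. *Peg12* went the other way, with 0 neuronal against 58 non-neuronal UMIs in the untreated library, where no ratio was formed against 0, and 5 against 177 in the other, a ratio of 0.191 (0.0614–0.455). Of the non-neuronal UMIs, 42 and 151 were in *Mog* cells.

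*Igf2* was highest in *Dcn* cells. Gated by decorin, a collagen-binding proteoglycan, these 25 and 15 cells carried 446 and 146 *Igf2* UMIs, or 3807 and 3325 CPM, and every one had at least 1. The lowest cell had 1 and 1, the median 13 and 5 and the highest 79 and 34 UMIs. All other gated cells together had 164 and 293 UMIs, spread over many more cells, and the ratio was 278 (232–335) and 227 (185–278). *Igf2* and *Cdkn1c* were the genes of the 7 tested that were at least 2-fold higher in *Dcn* cells than in other gated cells in both libraries, as were 7.95% of the 9528 genes tested. With 25 and 15 cells in the class, these values rest on few cells. The 4 pericyte markers summed to 5864 and 3529.9 CPM in *Dcn* cells, against 1769 and 1934 CPM in *Cldn5* cells, and their part in the *Igf2* level was not tested.

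Gated *Dcn* cells held 46.2% and 16.7% of all *Igf2* UMIs. Another 227 and 282 UMIs were in 15 and 23 cells without any gate that had at least 5 *Igf2* UMIs, and all of them carried *Col1a1* or *Col1a2*, the chains of type I collagen. Of the other cells without a gate, 10.9% and 5.14% did. *Cldn5* cells were next among the classes at 58.2 and 90.9 CPM, with *Igf2* in 41 and 67 cells. *C1qa* cells, the assumed background class, had 4.90 and 16.6 CPM. Neurons had 3 and 2 UMIs in all, a ratio to non-neuronal cells of 0.0469 (0.00964–0.138) and 0.0310 (0.00374–0.113). The second was 0.285 when no neuronal marker was asked of the neuronal classes.

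*H19*, which neighbours *Igf2*, gave few UMIs. All kept cells had 19 and 21 UMIs, in 11 and 20 cells. Of the untreated UMIs, 6 were in 1 *Dcn* cell, and the 15 *Dcn* cells of the 4OH-tamoxifen library had 0. A count of 0 in so few cells does not bound how many express the gene. These counts are too few to compare classes.

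*Cdkn1c* in *Dcn* cells stood at 401 and 182 CPM, from 47 and 8 UMIs, 6.06-fold (4.42–8.14) and 3.13-fold (1.35–6.19) the other gated cells. This was above every other class in the untreated library, but in the 4OH-tamoxifen library the interval of 78.7–359 CPM reached that of the *Mog* cells. *Mog* cells were at 112.5 and 96.6 CPM and *Cldn5* cells at 112 and 78.6 CPM. *Pdgfra* cells had 43.0 and 36.8 CPM, *C1qa* cells 24.5 and 12.8 CPM, *Aqp4* cells 14.6 and 13.8 CPM and neurons 20.8 and 14.0 CPM. The ratio of neurons to non-neuronal cells was 0.279 (0.178–0.418) and 0.215 (0.150–0.299), or 0.495 and 0.352 with gates of 1 UMI.

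Inside the *Mog* class *Cdkn1c* was unequal. The class was divided, after its values had been seen, by *Opalin*, a myelin gene of earlier myelinating cells, and *Hapln2*, a matrix link protein gene of mature oligodendrocytes. Cells with at least 2 *Hapln2* UMIs and 0 *Opalin* UMIs (58 and 313 cells) had *Cdkn1c* at 299 and 238 CPM. Cells with at least 2 *Opalin* UMIs and 0 *Hapln2* UMIs had 32.2 and 20.6 CPM, cells with both 143 and 82.5 CPM, and cells with neither 35.6 and 48.3 CPM. Cells with 1 UMI of 1 of the genes alone were in no subset. The intervals of the *Hapln2* cells, 255–348 and 218–259 CPM, did not reach those of any other subset. In thinned cells *Cdkn1c* was found in 29.8% and 35.6% of the *Hapln2* subset and in 3.37% and 6.03% of the *Opalin* subset. *Snrpn* in the same subsets ranged only from 334 to 404 and from 310 to 355 CPM.

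**Figure D4:**
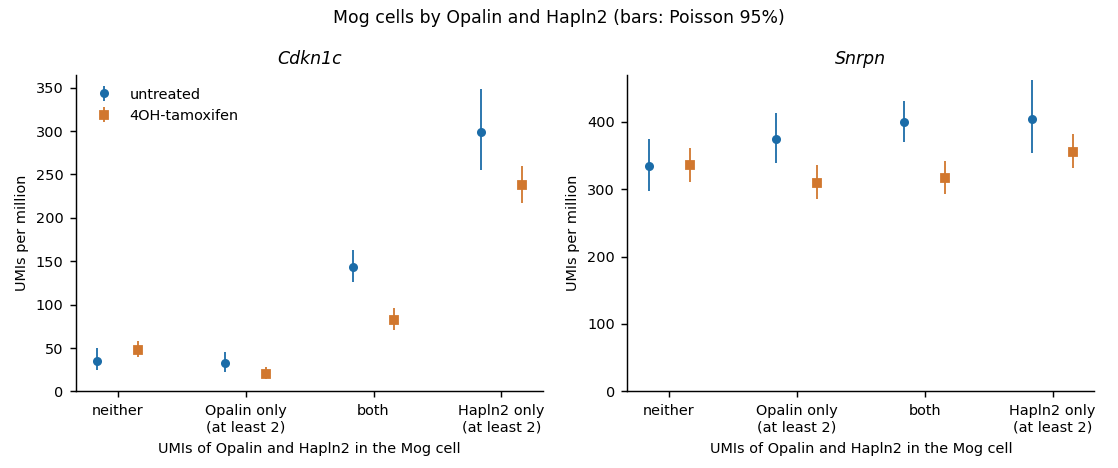
Level (CPM) of *Cdkn1c* and *Snrpn* in *Mog* cells divided by *Opalin* and *Hapln2*, for both libraries, with 95% Poisson intervals. *Cdkn1c* is at 299 and 238 CPM in cells with *Hapln2* alone and at 32.2 and 20.6 CPM in cells with *Opalin* alone, while *Snrpn* is nearly level.

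A wider list of 38 other imprinted genes, chosen with earlier results of these data known, was measured in the same way. Of these, 36 had a row, and 23 reached the minimum in both libraries. In both libraries 17 were at least 2-fold higher in neurons, against 25.5% of the 10266 genes tested, and 0 at least 2-fold lower, against 15.7%. The median log2 ratio was 2.14 and 1.84 over the 23 and 25 genes of the list with enough UMIs in each library, and 0.23 and 0.33 over all genes. Among the 26 genes with at least 20 UMIs and a ratio in each library, *Magel2*, *Usp29* and *Zim1* had the largest ratios by the mean log2 over the libraries. The smallest by the same mean were those of *Kcnq1*, a potassium channel gene of the *Cdkn1c* domain (0.243 and 0.266), *Ddc*, an enzyme of monoamine synthesis (0.307 and 0.609), and *Commd1* (0.612 and 0.545). *Peg12* had enough UMIs but 0 in untreated neurons, so it had no ratio there and was left out of this order, and its ratio of 0.191 in the 4OH-tamoxifen library was below that of *Kcnq1*. *Kcnq1* had 39 and 50 of its UMIs in *Cldn5* cells (27.4 and 32.5 CPM) and 1 and 2 in neurons, while *Kcnq1ot1*, the noncoding RNA transcribed from within it, had ratios of 2.72 and 2.41. *Phlda2* and *Slc22a18*, of the same domain, had at most 6 UMIs in any group. *Nnat*, neuronatin, was singled out after its values were seen. It stood at 803 and 626 CPM in *Pdgfra* and 602 and 523 CPM in *Aqp4* cells, and its ratio of neurons to non-neuronal cells was 1.25 and 0.784. The plot of ratios sets the members among these genes.

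**Figure D5:**
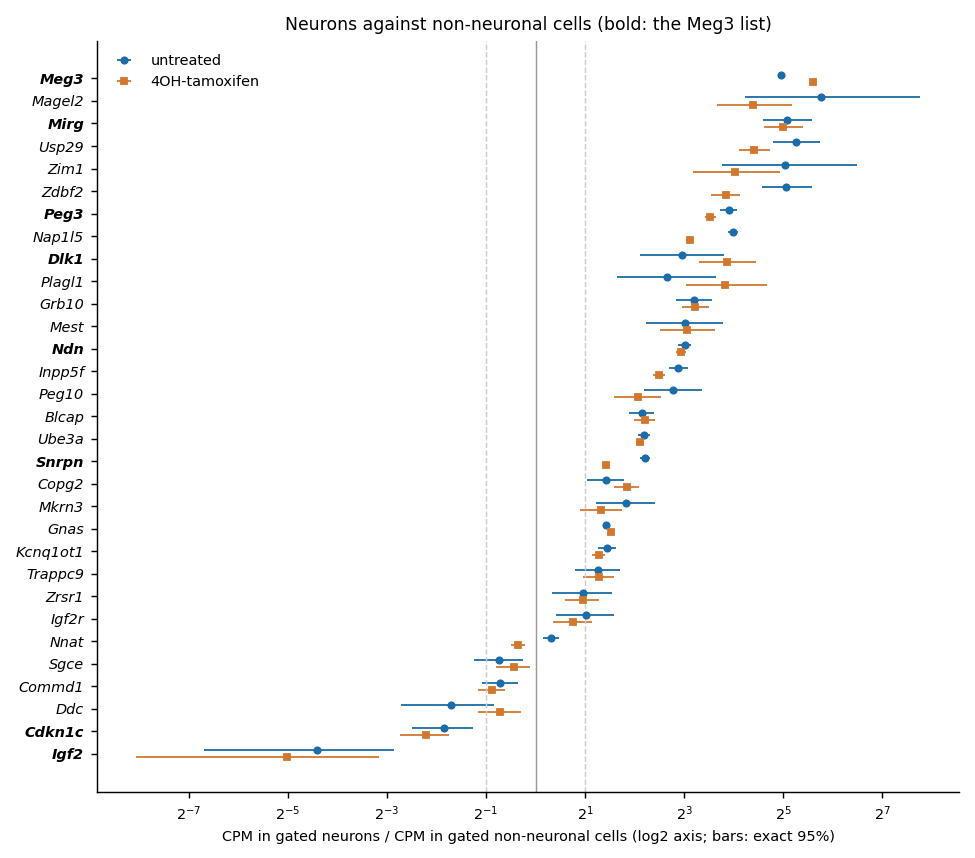
Ratio of CPM in gated neurons to gated non-neuronal cells (log axis) for the measured members (bold) and the other imprinted genes, in both libraries, with 95% intervals. *Magel2* (54.6 and 21.0), *Usp29* (38.1 and 21.4), *Mirg* (33.7 and 32.0) and *Meg3* (30.9 and 48.5) are near the top, and *Igf2* (0.0469 and 0.0310) is lowest.

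The genes whose class profile was most like that of a member were found among 7087 genes, by Pearson's correlation of log2 CPM over the 20 class sums (10 classes in each of 2 libraries). For *Meg3* they were *Snhg11* (0.982), *Map3k12* (0.978), *Lrrc16b* (0.977), *Cacna1b* (0.975) and *Ckmt1* (0.973), and of the other imprinted members *Mirg* came nearest (0.957, rank 18). For *Peg3* they were *Svop* (0.984), *Tro* (0.979), *Clstn3* (0.978), *Cacna2d2* (0.976) and *Fbxl16* (0.976). For *Igf2* they were *Edn3* (0.976), *Cp* (0.972), *Rcn3* (0.970), *Slc6a20a* (0.967) and *Gpc3* (0.967), with *Cdkn1c* at 0.767. The 20 points share libraries and a division into neurons and other cells, so these values are descriptions.

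Few of the genes differed 2-fold between the libraries. In the 6 classes with at least 50 cells in each library, 0 of 7 tested members passed 2-fold in *Slc32a1* cells, where 5.95% of all genes did, and 0 of 7 in *Aqp4* cells (2.85%). None passed among 6 in *Pdgfra* cells (5.17%), 5 in *Mog* cells (0.649%) and 6 in *Cldn5* cells (4.83%). In *C1qa* cells 2 of 6 passed, against 8.29% of all genes. These were *Snrpn*, at 74.2 and 159 CPM, a ratio of 4OH-tamoxifen to untreated of 2.14 (1.69–2.73), and *Igf2*, with 7 and 22 UMIs, a ratio of 3.38 (1.39–9.37). In *Mog* cells *Igf2* was under the CPM minimum, with 5 and 39 UMIs and a ratio of 3.72 (1.46–12.1). Its ratio was 1.56 (1.18–2.07) in *Cldn5* cells, 0.978 in *Aqp4* cells and 0.944 in *Pdgfra* cells. In the same *C1qa* cells the summed level of 9 of the 11 marker lists for other cells was higher in the 4OH-tamoxifen library, and that of 2 was lower, the endothelial (42.7 and 31.6 CPM) and pericyte lists (106 and 45.2 CPM). The 6 neuronal markers summed to 450.2 and 994 CPM, the 4 astrocyte markers to 478 and 800.5 CPM and the 4 oligodendrocyte markers to 975 and 1469 CPM, and their part in the ratios was not tested. Without replicate libraries these ratios have no error beyond counting, and batch and treatment cannot be told apart.

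Smaller ratios did not share a direction. *Snrpn* was 0.659 (0.601–0.723) in *Slc32a1* cells and 1.69 (1.29–2.21) in *Cldn5* cells, *Ndn* was 0.580 (0.485–0.693) in *Pdgfra* cells, and *Peg3* was 1.65 (1.36–2.00) in *Aqp4* cells. *Meg3* was 1.18 (1.15–1.21) in *Slc32a1* cells, 0.649 (0.613–0.687) in *Aqp4* cells and 0.611 (0.561–0.666) in *Mog* cells. The last 2 rest on few cells. Without the cells of at least 20 *Meg3* UMIs (11 and 21 *Aqp4* cells, 4 and 7 *Mog* cells), left out after the values were seen, the ratio was 0.928 (0.833–1.03) in *Aqp4* cells and turned to 1.53 (1.31–1.79) in *Mog* cells. In *C1qa* cells the *Meg3* ratio was 1.17 (1.00–1.38), but 1 untreated cell held 245 of the 303 UMIs of that class. Without the highest cell of each library, a choice made after the values were seen, 58 and 250 UMIs remained and the ratio was 4.63 (3.47–6.27). Without the cells of at least 20 *Meg3* UMIs (1 and 4 *C1qa* cells) it was 2.25 (1.63–3.14). With all cells the *Meg3* ratio was 0.806 (0.735–0.883) in *Pdgfra* cells and 1.14 (0.994–1.32) in *Cldn5* cells. Without the cells of at least 20 *Meg3* UMIs these were 0.932 (0.841–1.03) and 1.68 (1.42–1.99).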

How the data were processed

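Cells of the ventral parafacial region were profiled with 10X v2 chemistry in 2 libraries of 8 pooled mice each. The authors demultiplexed reads with bcl2fastq 2.18.0.12 and aligned and counted them with Cell Ranger 2.2.0 on the mm10 reference (GRCm38), and the deposited values are UMI counts per gene and cell barcode, not normalized. Barcodes called as doublets by Scrublet (scanpy 1.11.5, 2 simulated doublets per cell, automatic threshold) were removed, as were cells with under 800 genes, over 50 hemoglobin UMIs or over 20% mitochondrial UMIs. Neuronal classes needed 1 UMI of *Chat*, *Slc32a1* or *Slc17a6* or 2 of *Nmb*, and 2 of the 4 neuronal markers. The other classes needed 2 UMIs of *Aqp4*, *Pdgfra* or *Mog*, or 5 of *C1qa*, *Cldn5* or *Dcn*. Cells that passed more than 1 gate (307 and 568) or none (665 and 2708) were left out of the classes. A supporting marker stood out where its CPM in the class was at least 2 times that of the other gated cells, each plus 10 CPM, in at least 10% of its cells.

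Counts were summed per class and library, and levels have exact Poisson, shares Clopper-Pearson and ratios exact conditional 95% intervals (scipy 1.17.1). A gene was at least 2-fold higher or lower when it had 20 UMIs over both sides and 10 CPM on 1 side. Correlations of class profiles used log2 of CPM plus 10, among genes with at least 50 CPM in 1 class in each library. The gates, members and lists were chosen with earlier results of these data known, and the named genes outside the members are those of the members' clusters, the 3 largest and 3 smallest ratios of the list and the 5 nearest profiles, with exceptions named in the text. The ratio intervals were also run on simulated Poisson class sums. These leave out the gathering of UMIs in few cells, so they do not show how the intervals behave under it. Alternatives changed doublet calls, filters, gates, thinning, weights and classes. Droplet sequencing reads the 3′ end of polyadenylated RNA, so small RNAs are not measured. *Rian* was not analysed here.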

Additional observations from a re-analysis of the deposited data

Results flagged for a closer look

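The ratio of 4OH-tamoxifen to untreated differed in direction between classes for both *Meg3* and *Snrpn*, and these differences were not tested, since each class has 1 sample per library. *Meg3* had a ratio of 1.18 in *Slc32a1* cells and of 0.611 in *Mog* cells, where 4 untreated cells with at least 20 *Meg3* UMIs held 736 of 950 UMIs. Without the cells of at least 20 *Meg3* UMIs, left out after the values were seen, the *Mog* ratio was 1.53, on the same side of 1 as in *Slc32a1* cells. *Snrpn* had a ratio of 2.14 in *C1qa* cells and of 0.659 in *Slc32a1* cells.

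Cells outside every gate also carried the transcripts of the chromosome 12 cluster. *Meg3* stood at 3319 CPM in the 665 untreated and 3534 CPM in the 2708 4OH-tamoxifen cells without a gate, above every non-neuronal class, and *Mirg* at 36.2 and 37.2 CPM. Of these cells, 50 and 241 had at least 20 *Meg3* UMIs and held 86.2% and 89.7% of that *Meg3*, and 47 and 228 of them carried a neuronal marker UMI.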

How the results depend on the processing

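Every alternative kept the ratio of neurons to non-neuronal cells on its side of 1 for the 8 tested members. The *Meg3* ratio was 30.9 for untreated and 48.5 for 4OH-tamoxifen cells. It was 33.3 and 51.5 with doublets at the rate of the loading, 34.0 and 59.3 with at most 10% mitochondrial UMIs, 14.8 and 14.8 with gates of 1 UMI, and 53.3 and 83.4 with doubled gates. It was 29.0 and 46.2 with no neuronal marker asked, 81.5 and 78.6 without non-neuronal cells that carried a neuronal UMI, 32.7 and 44.9 as a mean over the CPM of single cells, and 27.2 and 18.0 with classes from the supporting marker lists. It was 29.1 in the untreated library with at least 1200 genes and 40.1 in the 4OH-tamoxifen library without doublet removal. Among the supporting lists, the glutamatergic one did not mark neurons alone. It stood at 217 and 229 CPM in *Mog* cells, against 208 and 414 CPM in *Slc17a6* cells. Its part in the ratios with the marker lists was not tested. The *Igf2* ratio of *Dcn* cells (278 and 227) was 223 in the untreated library with doubled gates, and in the 4OH-tamoxifen library 172 without cells that carried a neuronal UMI and 333 with the marker lists. The *Meg3* ratio between libraries in *C1qa* cells (1.17) was 0.625, with its direction reversed, with doublets at the rate of the loading, 1.54 with at least 1200 genes, 2.48 with gates of 1 UMI, 4.50 with doubled gates, 5.06 without cells that carried a neuronal UMI, 1.74 after thinning, 1.40 as a mean over the CPM of single cells, 2.34 with the marker lists and, chosen after seeing the data, 4.63 without the highest cell of each library and 2.25 without cells of at least 20 *Meg3* UMIs. Tried after seeing the data, the same ratio reversed in *Aqp4* cells (0.649) to 1.10 with gates of 1 UMI, 1.03 without cells that carried a neuronal UMI and 1.08 with the marker lists, and in *Mog* cells (0.611) to 1.71 without cells that carried a neuronal UMI, 1.17 with the marker lists and 1.53 without cells of at least 20 *Meg3* UMIs. The cause of each shift was not tested. The count of 17 other imprinted genes ranged from 13 to 20. Of the ratios of the other members, 121 moved by less than their interval and 46 by more. Over the alternatives, *Mirg* ranged from 16.2 to 265 and from 11.997 to 81.1, *Dlk1* from 2.56 to 12.8 and from 4.22 to 22.8, *Peg3* from 8.83 to 18.7 and from 7.56 to 16.2, *Ndn* from 5.05 to 8.73 and from 4.10 to 8.24, *Snrpn* from 3.53 to 5.40 and from 2.22 to 2.89, *Igf2* from 0.0319 to 0.0604 and from 0.0185 to 0.285, and *Cdkn1c* from 0.166 to 0.495 and from 0.173 to 0.352. With gates of 1 UMI, *Igf2* in neurons of the 4OH-tamoxifen library gave no ratio.

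No paired analysis was possible because each condition has 1 library. Counting intervals leave out the variation between mice and libraries. The shallower 4OH-tamoxifen library, the 20 untreated *Chat* cells, the 25 and 15 *Dcn* cells and the few UMIs of *Dlk1*, *Mirg* and *H19* limit what these data can show.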

Other observations

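The few cells with *Tph2*, the serotonin synthesis enzyme gene, were high in *Dlk1*, a set chosen after its values were seen. Of the kept cells, 3 untreated and 2 4OH-tamoxifen cells had at least 2 *Tph2* UMIs, and all 5 carried *Dlk1*, with 4 to 7 UMIs each in the first library and 17 to 25 in the second. Their *Dlk1* level was 954 and 2171 CPM. The other gated neurons were at 12.3 and 26.9 CPM, and 10 of 149 and 31 of 541 of them carried *Dlk1*. Of the 5 cells, 3 were gated neurons, all in the *Slc32a1* class, and they held 9 of the 23 and 17 of the 86 neuronal *Dlk1* UMIs, so most lay in the other neurons.

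A few cells with clear neuronal transcripts had no *Meg3*, and these too were chosen after their values were seen. Of gated neurons with at least 10 UMIs of the 4 neuronal markers, 7 untreated and 2 4OH-tamoxifen cells had 0 *Meg3* UMIs, against 105 and 328 with at least 1. Their *Malat1*, another abundant nuclear RNA, was at 443 and 408 CPM, against 21776 and 18310.1 CPM in the cells with *Meg3*. *Snhg11* was at 83.1 CPM, from 3 UMIs, in the untreated cells, against 3007 CPM. The coding members were present in the untreated cells, *Peg3* at 858 CPM against 646, *Ndn* at 914 against 795 and *Snrpn* at 997 against 1106. The 2 cells of the 4OH-tamoxifen library had 0, 3 and 2 UMIs of these genes, too few to compare.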
